A study of Mus musculus with 8 samples.

Results

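The 10 genes described here encode contractile, calcium-handling and hormone proteins of cardiac and pulmonary vein muscle: Myh6, Myh7, Myl4, Myl7, Tnnt2, Tnni3, Actc1, Nppa, Ryr2 and Sln. They were found in the count table by matching its Entrez gene numbers to these symbols, and they are 10 of 23469 rows. They were chosen by name with the measured differences between the genotypes in these libraries already known, and there is no threshold on a value. Differences of these 10 genes between the genotypes are therefore given as a description, with no p-value.

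Lung RNA was sequenced from C57BL/6 mice in 4 groups, named here by their labels: wild type mice given PBS (WP), wild type mice given house dust mite extract (HDM; WH), DDAH1-transgenic mice given PBS (TP) and DDAH1-transgenic mice given HDM (TH). HDM is an extract of the mite Dermatophagoides pteronyssinus that is instilled to model allergic asthma, and DDAH1 is an enzyme that breaks down asymmetric dimethylarginine, an inhibitor of nitric oxide synthases. HDM was given into the trachea at 100 µg per dose in a volume of 50 µl, with 3 doses in each of 3 weeks, and the PBS groups had the same volume of PBS on the same days. Lungs were taken 24 hours after the final dose. The study asked how lung gene expression differed between the genotypes with and without allergen. The promoter that drives the transgene and the ages of the mice are not given in the sources used here.

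Each group is 1 pool of RNA from 4 mice, sequenced as 2 libraries. The SD over the 2 libraries, and every p-value below, therefore measures the spread between libraries of a pool and not the spread between mice. Total counts ran from 5694928 to 11929374 per library, and 1 ribosomal RNA gene, Rn45s, took 8.58% to 21.8% of them. A gene with 0 counts could stand at up to 3 counts, which is 0.232 to 0.449 CPM (the count scaled to library size) depending on the library, and this limit covers counting error only. The row for mouse Ddah1 stood at 34.3 to 47.7 CPM in WP, 53.8 to 76.9 in TP, 43.1 to 44.7 in WH and 33.4 to 34.9 in TH. It was thus higher in TP than in WP but lower in TH than in WH, so the genotype of TH is known from its label alone, and whether that row counts the transgene's own transcript is not given in the sources used here. Xist, the RNA of the inactive X chromosome, lay between 11.3 and 20.8 CPM in the 4 PBS libraries and between 2048 and 3040 CPM in the 4 HDM libraries, while the Y-linked gene Ddx3y had at least 621 counts in every PBS library and at most 3 in every HDM library. Sex and treatment cannot be told apart in any comparison of HDM with PBS. All differences are relative to the other genes of the same lung sample, so fewer cells of a type and less RNA per cell cannot be told apart.

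In mice, a sleeve of cardiac-type muscle runs from the left atrium along the pulmonary veins into the lung, and whole-lung RNA can therefore hold transcripts of cardiac sarcomeres. In a sarcomere, myosin heavy chains and their light chains pull on filaments of actin, and the troponin complex on those filaments opens or closes the sites for myosin as calcium rises and falls. Calcium reaches the filaments through the ryanodine receptor of the sarcoplasmic reticulum and is pumped back by SERCA, the pump that sarcolipin and phospholamban restrain. Atrial muscle also makes the hormone atrial natriuretic peptide.

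Several of the 10 genes have close relatives, and the sequences that separate them decide which reads can be told apart. The coding sequences of Myh6 (chr14:54941921-54968017 in mm10) and Myh7 (chr14:54970684-54994626) were 91.5% identical, with a longest identical run of 245 bases. Of all 50-base stretches of the Myh6 transcript, 22.6% also occurred in Myh7. The 60-base coding window in which the pair differed most is shown here, with the 27 mismatched bases in capitals and positions counted from the first coding base.
Myh6, coding bases 3226 to 3285: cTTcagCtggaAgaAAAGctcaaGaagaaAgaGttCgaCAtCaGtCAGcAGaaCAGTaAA
Myh7, coding bases 3220 to 3279: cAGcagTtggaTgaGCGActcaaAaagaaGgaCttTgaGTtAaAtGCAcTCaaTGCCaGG
Actc1 (chr2:114047282-114052875), the actin of heart, and Acta1 (chr8:123891758-123894775), the actin of skeletal muscle, were 86.3% identical over their coding sequences, but their longest identical run was 29 bases. No 50-base stretch of the Actc1 transcript occurred in another gene, so a perfectly matching 50-base read of Actc1 can be placed. The 60-base window with most differences between them held 15 mismatches, again in capitals.
Actc1, coding bases 436 to 495: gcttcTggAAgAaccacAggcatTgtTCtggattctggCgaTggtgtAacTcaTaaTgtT
Acta1, coding bases 436 to 495: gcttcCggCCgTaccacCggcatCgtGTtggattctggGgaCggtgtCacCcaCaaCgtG
Nppa (chr4:148000722-148002074) shared 53.4% of its 50-base stretches with an overlapping antisense gene, Gm13054. The strand setting of the counting is not given in the sources used here, so reads of these overlapping genes cannot be told apart. Myl4 (chr11:104546017-104587215), Myl7 (chr11:5896637-5898782), Tnnt2 (chr1:135836315-135852268), Tnni3 (chr7:4518305-4522718) and Sln (chr9:53850251-53853849) shared no 50-base stretch with another gene, and Ryr2 (chr13:11553099-12106945) shared 0.0835% of its own.

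The bases just before the start of 9 of the 10 genes were read from RefSeq on GRCm38.p6, as 11 promoters, since Myh7 and Tnnt2 have 2 each. Of the 11, 2 held a CArG box, the site of serum response factor, within 250 bases of the start, and 482 of 32851 promoters of the same length (1.47%) held one. These 2 are shown because they hold the box, and no relation between the box and the levels was tested. In Actc1 the box, in capitals, began 47 bases before the start.
Actc1, chr2:114052876-114053125, minus strand: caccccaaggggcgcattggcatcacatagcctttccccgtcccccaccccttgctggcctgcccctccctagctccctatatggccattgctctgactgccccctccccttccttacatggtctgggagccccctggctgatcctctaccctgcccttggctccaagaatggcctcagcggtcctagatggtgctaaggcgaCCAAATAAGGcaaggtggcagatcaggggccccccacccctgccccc
In Myl7 the CArG box began 61 bases before the start and stood between a CATTCC, the letters of a TEAD site, and a GATAA, the letters of a GATA site, all in capitals.
Myl7, chr11:5898783-5899032, minus strand: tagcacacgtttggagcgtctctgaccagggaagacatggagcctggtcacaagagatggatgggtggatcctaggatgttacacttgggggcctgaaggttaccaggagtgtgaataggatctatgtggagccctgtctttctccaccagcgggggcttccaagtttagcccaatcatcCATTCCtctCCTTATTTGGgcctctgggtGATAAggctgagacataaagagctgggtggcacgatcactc
Searched on both strands, CATTCC was present in 4 of the 11 promoters against 12.6% of all promoters, GATAA in 3 of 11 against 22.6%, TATAAA in 1 of 11 (Nppa) against 12.4%, and the MEF2 site in 0 of 11 against 0.508%. These matches are letters in a window and do not show that a factor was bound.

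All 10 genes had their highest mean level in WP, and 8 had their lowest in TH, the exceptions being Myl4 (lowest in WH) and Sln (lowest in TP). The 10 genes summed to between 360 and 419 CPM in the WP libraries, 228 to 245 in WH, 183 to 221 in TP and 106 to 132 in TH, with no overlap between any of the groups. Relative to the WP mean, the median gene stood at 50.1% in WH, 48.3% in TP and 33.5% in TH. The high place of WP over TP went into the choice of the genes.

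**Figure D1:**
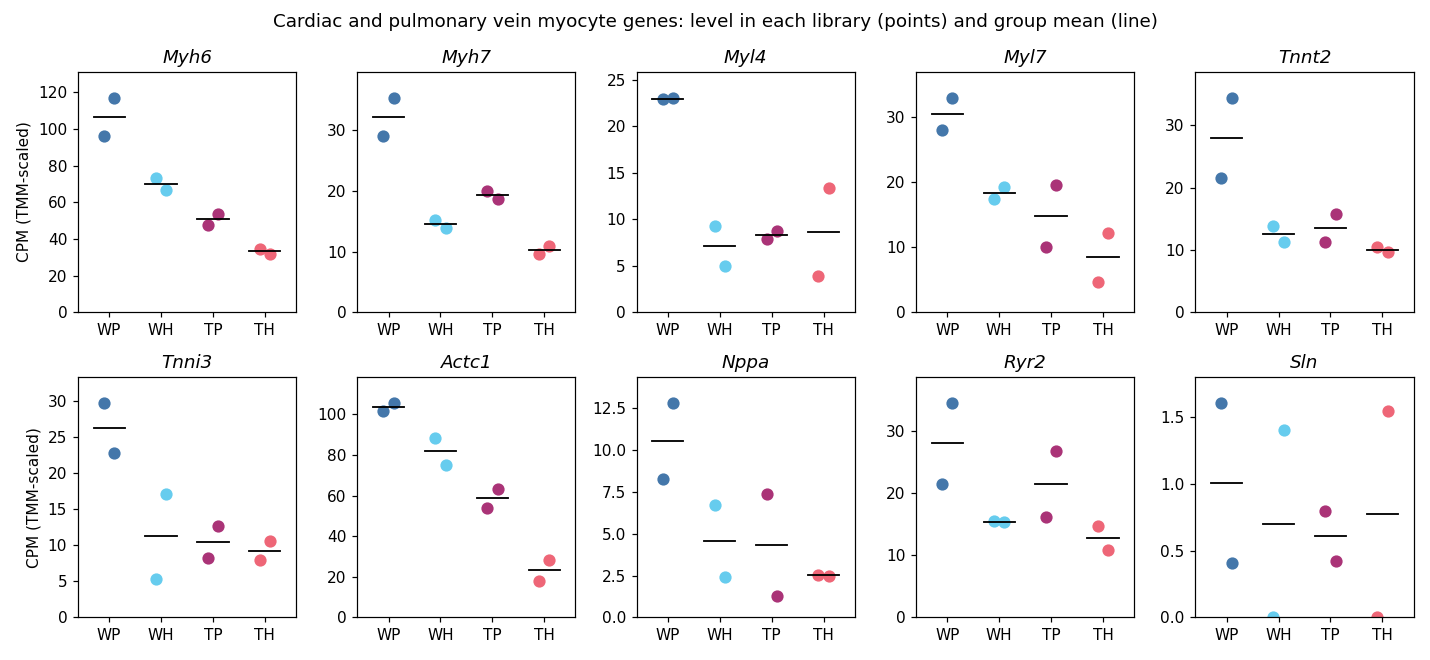
Level of each gene in TMM-scaled CPM (vertical axes start at 0) in the 2 libraries of each group (points) with the group mean (line). The 10 means are highest in WP, and Actc1 and Myh6 fall in the order WP, WH, TP, TH without overlap between groups.

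The myosin heavy chains are the motors of the thick filament: Myh6 encodes the fast alpha chain of adult mouse heart and atrium, and Myh7 the slower beta chain, which is also used by slow skeletal muscle. Myh6 stood at 96.2 and 117 CPM in WP, 73.1 and 66.9 in WH, 47.5 and 53.7 in TP, and 34.7 and 31.7 in TH. Myh7 stood at 29.0 and 35.4 CPM in WP, 15.2 and 13.9 in WH, 19.96 and 18.7 in TP, and 9.58 and 10.99 in TH. In both genes the libraries of each group lay close together and no groups overlapped, but the middle groups came in opposite order, with WH above TP for Myh6 and TP above WH for Myh7. The count of Myh7 per count of Myh6 was 0.302 in each WP library, 0.208 and 0.207 in WH, 0.420 and 0.348 in TP, and 0.276 and 0.346 in TH. Myh6 thus had the larger count in all 8 libraries, and the ratio was lowest in WH and highest in TP1.

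The light chains Myl4 and Myl7 are the atrial essential and regulatory light chains, small subunits on the neck of the myosin head. Myl4 stood at 22.9 and 23.1 CPM in WP, 9.29 and 5.02 in WH, 7.88 and 8.77 in TP, and 3.89 and 13.4 in TH. Myl7 stood at 28.0 and 33.1 CPM in WP, 17.5 and 19.3 in WH, 9.98 and 19.5 in TP, and 4.64 and 12.2 in TH. For both genes the WP libraries lay above all 6 others, and the TH libraries differed from each other by more than the WH mean did from the TP mean. TH1, the library with 26 counts of Myl4 and 31 of Myl7, had the lowest level of both, whereas TH2 had 173 and 158 counts.

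The thin filament was represented by Actc1 and by 2 troponins, Tnnt2, which ties the troponin complex to tropomyosin, and Tnni3, its inhibitory subunit. Actc1 stood at 102 and 106 CPM in WP, 88.5 and 75.2 in WH, 54.1 and 63.1 in TP, and 17.8 and 28.5 in TH, and no groups overlapped. Tnnt2 stood at 21.5 and 34.4 CPM in WP, 13.8 and 11.2 in WH, 11.3 and 15.7 in TP, and 10.5 and 9.60 in TH. Tnni3 stood at 29.7 and 22.9 CPM in WP, 5.36 and 17.2 in WH, 8.18 and 12.7 in TP, and 7.94 and 10.5 in TH. Both troponins were highest in WP, and outside WP their groups overlapped except for Tnnt2 in TH, which lay below the other groups.

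Of the calcium-handling genes, Ryr2 encodes the cardiac ryanodine receptor and Sln encodes sarcolipin, a small inhibitor of SERCA found in atria and skeletal muscle. Ryr2 stood at 21.5 and 34.6 CPM in WP, 15.5 and 15.4 in WH, 16.3 and 26.8 in TP, and 14.8 and 10.8 in TH. Its WP and TP libraries overlapped, and TH lay lowest. Sln was close to the limit of detection in all groups, with 16 and 5 counts in WP, 0 and 14 in WH, 8 and 4 in TP, and 0 and 20 in TH, so no order of the groups can be read from it.

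Nppa, which encodes the precursor of atrial natriuretic peptide, stood at 8.24 and 12.8 CPM in WP, 6.70 and 2.41 in WH, 7.38 and 1.27 in TP, and 2.55 and 2.48 in TH. The WP libraries were the highest, while WH and TH lay within the range of the TP libraries. Its lowest count in a library was 12, in TP2, which was also the lowest count of any of the 10 genes other than Sln.

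Levels of different genes were compared only per kilobase of transcript. In WP, Actc1 was the most abundant at 70.4 CPM per kilobase, followed by Myl7 at 51.8, Tnni3 at 28.8, Myl4 at 24.4, Tnnt2 at 23.3, Myh6 at 17.4, Nppa at 12.2, Myh7 at 5.17, Ryr2 at 1.67 and Sln at 0.765. Myl4 and Tnnt2, and Tnnt2 and Myh6, overlapped between libraries, and the other neighbours did not. Per kilobase of transcript, Actc1, Myl7 and Tnni3 held the first 3 places in every group and Nppa, Myh7, Ryr2 and Sln the last 4. The counts are of reads in coding regions, and per kilobase of coding sequence this order changed. Actc1 (91.6 CPM per coding kilobase in WP) and Myl7 (58.2) stayed first and second in every group, but Sln, with its very short coding sequence, stood at 10.8 in WP, above Myh7 (5.55) and Ryr2 (1.88), and Nppa (23.1) stood above Myh6 (18.3). In TH, Myl4 (14.9) stood above Tnni3 (14.6), and Sln (8.33) above Myh6 (5.72), per coding kilobase. In TH, the values per kilobase of transcript for Actc1 (15.7), Myl7 (14.3), Tnni3 (10.1) and Myl4 (9.17) had come so close that each overlapped with the next.

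With PBS, the difference between the genotypes, TP minus WP, was negative for all 9 genes that passed the filter on low counts, which Sln did not, beside 49.9% of all genes tested. The median of the 9 was -1.06 on the log2 scale against 0.00 for all 14926 genes tested. Myl4 had the most negative value, -1.48 with a standard error (SE) of 0.38 and 2.78-fold lower, followed by Tnni3 at -1.35 (SE 0.38) and Nppa at -1.28 (SE 0.68). Myh6 differed by -1.09 (SE 0.20), Myl7 and Tnnt2 by -1.06 (SE 0.36 each), Actc1 by -0.83 (SE 0.19), Myh7 by -0.75 (SE 0.31) and Ryr2 by -0.39 (SE 0.35). In edgeR's quasi-likelihood test, 1 of the 9 genes, Myh6, passed the threshold, beside 0.657% of all genes tested (0.375% in the lower direction). For 8 of the 9 genes, Ryr2 being the exception, both TP libraries lay below both WP libraries, as they did for 20.4% of all genes tested. These genes were proposed from this contrast, and nothing is read from its counts.

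With HDM, the libraries labelled TH and WH differed by a median of -0.37 over the 10 genes, against 0.01 for all 15191 genes tested, and 8 of the 10 values were negative, beside 49.5% of all genes. The largest difference was that of Actc1, -1.78 (SE 0.31), which is 3.43-fold lower in TH, and Myl7 at -1.07 (SE 0.52) and Myh6 at -1.04 (SE 0.27) came next. Myh7 (-0.46), Tnnt2 (-0.28), Tnni3 (-0.24) and Ryr2 (-0.23) had differences no larger than their SE, which lay between 0.44 and 0.60, and Nppa differed by -0.82 (SE 0.91). Without WH2 the value of Tnni3 was 0.83, and without WH1 that of Nppa was 0.08. Myl4 and Sln had positive values, 0.32 (SE 0.68) and 0.25 (SE 1.89), and without TH2 that of Myl4 was -0.82. One gene, Actc1, passed the threshold, beside 2.44% of all genes (0.599% in the lower direction), and 6 of the 10 had both TH libraries below both WH libraries, beside 25% of all genes. The genotypes of these libraries were known when the genes were proposed, and this contrast too is a description.

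The difference between the genotype differences under HDM and under PBS was also described without a test. It was positive for 8 genes, with the highest value, 1.76 (SE 0.77), for Myl4, and negative for 2, beside 50% of all 15868 genes. It was negative for Actc1 at -0.99 (SE 0.35) and for Myl7 at -0.05 (SE 0.64), and for Myh6 it was 0.00 (SE 0.39). Myh6 thus had a genotype difference of -1.09 under PBS and -1.04 under HDM, whereas Myl4 had a negative value under PBS only and Actc1 had the more negative value under HDM.

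**Figure D2:**
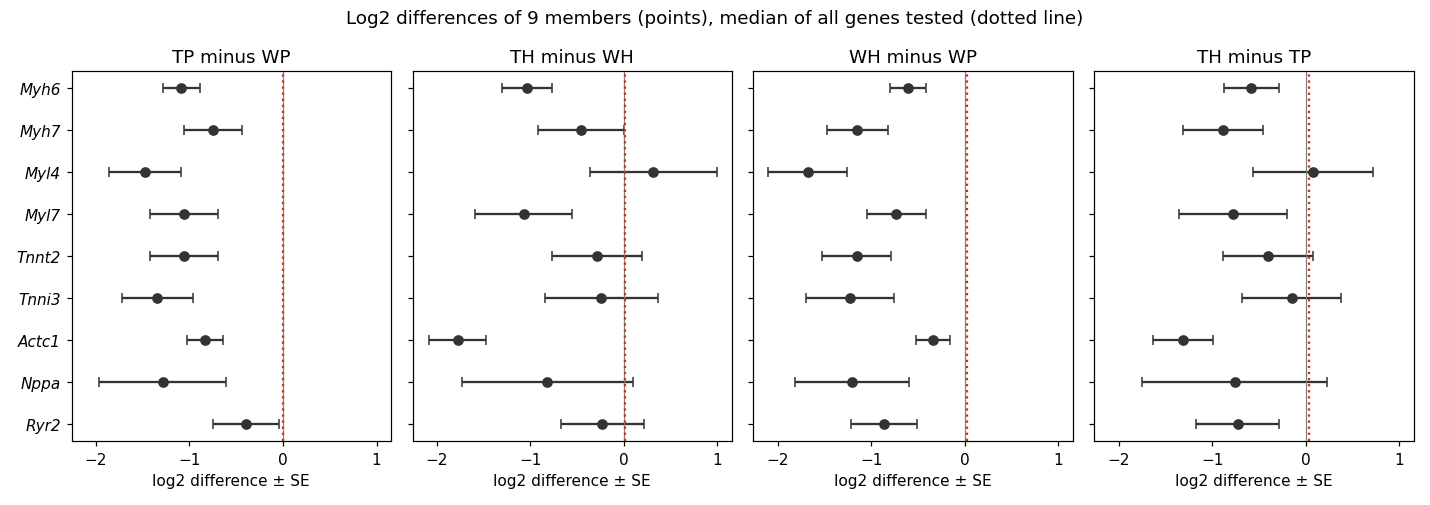
Log2 difference (horizontal axes, point with SE bar) of 9 genes in the 4 comparisons, with the median of all genes tested as a dotted line; Sln is left out because its counts were too low. In TP minus WP and WH minus WP all 9 points lie below 0, and in TH minus WH Actc1 has the most negative value, -1.78.

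In wild type mice, the HDM libraries had lower values of most of the 10 genes. All 10 genes had a negative value in WH minus WP, with a median of -1.01 against 0.02 for all 15123 genes tested, of which 48.6% were negative, and for 9 of them (all but Sln) both WH libraries lay below both WP libraries, beside 24.7% of all genes. This comparison shares the WP libraries with the contrast from which the genes were proposed, so it is not independent of that choice. In edgeR's quasi-likelihood test, with p-values adjusted over all genes by Benjamini and Hochberg's method, Myl4 fell by 1.68 (SE 0.42, adjusted p = 0.030), or 3.2-fold, and Myh7 fell by 1.15 (SE 0.32, adjusted p = 0.049), or 2.22-fold. That is 2 of 10 genes lower, beside 2.3% of all genes lower and 6.74% in either direction. Before adjustment, 7 of the 10 had a p under 0.05 in that test. The share of all genes at that p is not given here, so nothing is read from this count.

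The other 8 genes did not pass. Myh6 had a difference of -0.61 (SE 0.19, adjusted p = 0.074 in edgeR's test) and Tnnt2 of -1.16 (SE 0.37, adjusted p = 0.081). Tnni3 (-1.23), Nppa (-1.20), Ryr2 (-0.86), Myl7 (-0.73), Actc1 (-0.34) and Sln (-0.52) had adjusted p-values between 0.158 and 0.892 in the same test. Actc1 was the gene whose level differed least between WH and WP among the 9 with usable counts, although it had differed most between TH and WH. Both calls rested on single libraries. The adjusted p of Myh7 in edgeR's test was 0.137 without WP1, 0.317 without WP2 and 0.0609 without WH2, and that of Myl4 was 0.131, 0.115 and 0.0508, while without WH1 they were 0.0283 and 0.0006. How many of the 10 genes passed changed with the library left out, and so did the number of all genes that passed.

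In the libraries labelled DDAH1-transgenic, TH minus TP was negative for 8 of the 9 genes tested, with a median of -0.73 against 0.03 for all 15086 genes, of which 48.4% were negative. For 5 of the 9, Myh6, Myh7, Tnnt2, Actc1 and Ryr2, both TH libraries lay below both TP libraries, beside 28% of all genes. Actc1 fell by 1.31 (SE 0.32, adjusted p = 0.020 in edgeR's quasi-likelihood test), or 2.49-fold, and it was the only 1 of the 9 genes past the threshold, beside 5.35% of all genes lower and 13.8% in either direction. Without TP1 its adjusted p in edgeR's test was 0.123 and without TP2 it was 0.208, while without TH1 it was 0.040 and without TH2 it was 0.001. Myh7 (-0.89, SE 0.43) and Myh6 (-0.58, SE 0.29) had adjusted p-values of 0.208 and 0.220 in the same test, and Myl4 had a positive value, 0.08 (SE 0.64), that became -1.07 without TH2. The libraries TH and TP also enter the genotype comparisons above, and WH minus WP and TH minus TP were not tested against each other for single genes of the group.

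The actins of heart and skeletal muscle had different orders of the groups. Acta1, the skeletal actin, stood at 39.2 and 38.1 CPM in WP, 99.6 and 103 in WH, 53.5 and 61.1 in TP, and 56.8 and 59.9 in TH. Acta1 thus rose 2.61-fold in WH over WP (log2 difference 1.39, SE 0.20, adjusted p = 0.00055 in edgeR's test), whereas the difference of Actc1 there was -0.34 (SE 0.18). The count of Actc1 per count of Acta1 was 2.59 and 2.77 in WP, 0.889 and 0.734 in WH, 1.01 and 1.03 in TP, and 0.314 and 0.475 in TH. Actc1 had the larger count in WP, the 2 actins were about level in TP, and Acta1 had the larger count in WH and TH.

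**Figure D3:**
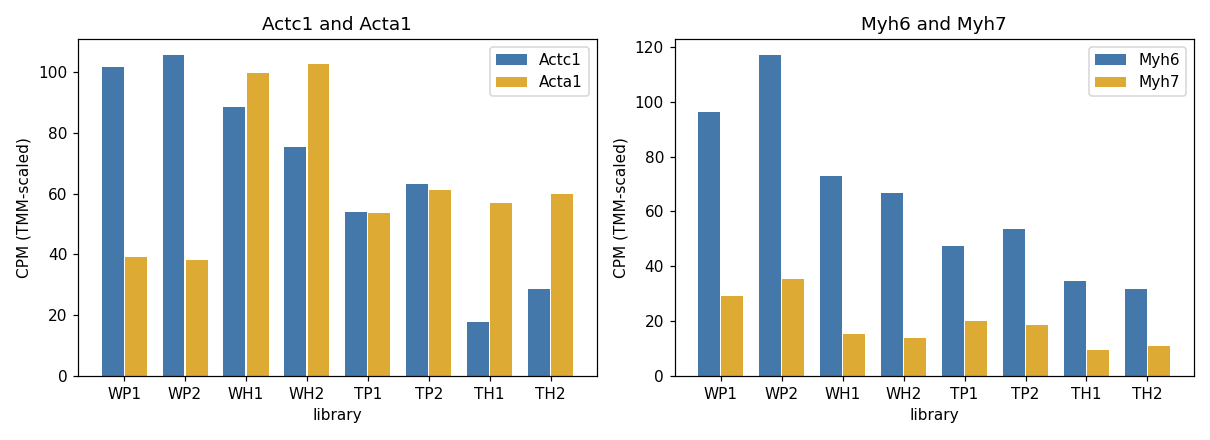
Level in TMM-scaled CPM (bars from 0) of the actins Actc1 and Acta1 (left) and of the myosin heavy chains Myh6 and Myh7 (right) in each of the 8 libraries. Actc1 exceeds Acta1 in WP and lies below it in WH and TH, and Myh6 exceeds Myh7 in every library.

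The lists for other muscle types had other orders of the groups than the 10 genes. A list of 20 skeletal muscle markers summed to 48.6 to 50.5 CPM in WP, 313 to 334 in WH, 318 to 358 in TP and 211 to 232 in TH, so it was lowest where the cardiac genes were highest. Its most abundant genes were Acta1, Myh8 and Myh4, and Tnni1, the slow troponin I, had 0 counts in every library. All 15 of its tested genes had positive values in TP minus WP and all 14 in WH minus WP, and 10 of them passed the threshold in each, beside 0.657% and 6.74% of all genes. Several of these genes were near 0 in WP, such as Myh2 (0 and 2 counts) and Myh8 (1 and 2). Such genes pass the filter on low counts only if the other group is high. Their direction was thus fixed in advance, and nothing is read from these counts of genes. The difference between the genotype differences was negative for all 17 genes tested, beside 50% of all 15868 genes. It was past the threshold for 9 of the 17, beside 279 of all 15868 genes. Levels near 0 in WP push this difference to negative values too, so nothing is read from these counts either. A list of 8 smooth muscle markers, led by Acta2, Myh11 and Smtn, summed to 235 to 256 CPM in WP, 272 to 318 in WH, 178 to 179 in TP and 176 to 183 in TH.

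Other tissues that can be taken along with a lung also had their highest level in WP. A list of 9 thymocyte markers summed to 114 to 118 CPM in WP, 49.6 to 73.5 in WH, 33.0 to 42.1 in TP and 51.5 to 58.2 in TH. A list of 7 adipocyte markers summed to 83.7 to 90.9 CPM in WP, 35.4 to 41.0 in WH, 26.9 to 49.6 in TP and 25.5 to 78.7 in TH. The thymocyte sums, like those of the cardiac genes, placed WP above all other libraries, but TP was lowest among them and not TH. The markers of lung epithelium and endothelium, led by Scgb1a1, Sftpc and Sftpa1, summed to between 21531 and 73551 CPM and were highest in TP. These epithelial genes made up most of that sum, so it does not describe the endothelial markers. The part of differing tissue content in the levels of the cardiac genes was not tested.

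**Figure D4:**
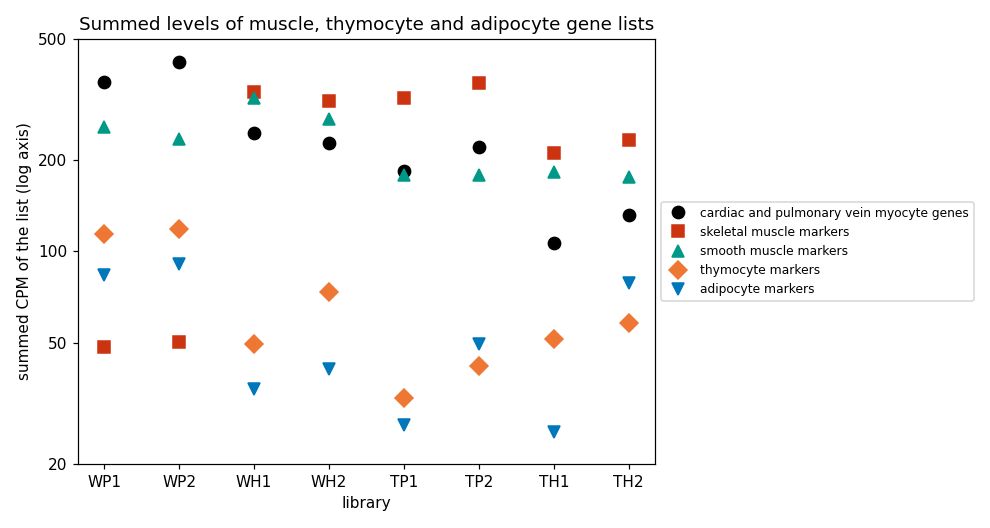
Summed CPM (log axis) of the 10 cardiac and pulmonary vein myocyte genes and of the skeletal muscle, smooth muscle, thymocyte and adipocyte lists in each library. The cardiac genes are highest in WP, at 360 and 419 CPM, where the skeletal muscle markers are lowest, at 48.6 and 50.5 CPM.

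Cardiac genes outside the 10 had no common direction between the genotypes under PBS. Over 5 lists holding 71 other cardiac genes (sarcomere and Z disc, calcium handling and junctions, natriuretic peptides, transcription factors, metabolism), 58 were tested in TP minus WP, with 29 positive and 29 negative values and a median of -0.01. None passed the threshold of edgeR's quasi-likelihood test, beside 0.657% of all genes. DESeq2 called 4 of the 58, and 223 genes in all. In edgeR's test 12 of the 58 had an unadjusted p under 0.05 (5 of them lower in TP). The share of all genes at that p is not given here. These lists were drawn up with earlier results known, so their counts are not independent evidence. Many of the 71 genes are also expressed outside cardiac muscle, and the sarcomere list was led by Ttn, Tpm1 and Nebl. Among the genes of calcium handling, Pln, which encodes phospholamban, had differences of -1.02 (SE 0.42) in TP minus WP and -0.97 (SE 0.53) in TH minus WH, and Cacna1c, the pore of the L-type calcium channel, had -0.96 (SE 0.25) and -0.33 (SE 0.39), none past the threshold. DESeq2 called Cacna1c in TP minus WP (adjusted p = 0.026).

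The list of 15 cardiac transcription and differentiation genes was detected in part. Of these, 4 had 0 counts in all 8 libraries, among them Nkx2-5, Hand1 and Shox2, transcription factors of heart development, as had 4250 of the 23469 rows, and 10 or 11 had a count in each group. Tbx5 stood between 43.4 and 76.0 CPM over the libraries, Gata6 between 18.5 and 52.7 and Tbx20 between 3.79 and 18.0, and Gata4 had between 3 and 114 counts. Tbx5 and Gata6 are also expressed by other cells of the lung. Nppb, which encodes brain natriuretic peptide, the atrial ligand Bmp10 and the ventricular light chain Myl2 were also at 0 throughout, and the ventricular factor Irx4 had 1 count, in WP1. Mybphl, an atrial myosin-binding protein, was detected in all libraries, at 3.52 and 3.75 CPM in WP, 0.27 and 1.41 in WH, 0.70 and 8.98 in TP, and 0.60 and 1.32 in TH, with the highest value in TP2. The sarcomere genes of cardiac muscle were thus present, while Nkx2-5, Bmp10 and Myl2 were not detectable at this depth.

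Of the ventricular markers, Myl3, which is also the essential light chain of slow skeletal muscle, was highest in TH, where the 10 genes summed lowest. It had 2.91 and 0.00 CPM in WP, 3.48 and 4.72 in WH, 0.00 and 0.85 in TP, and 18.6 and 8.67 in TH, and it was higher in TH than in TP (adjusted p = 0.009 in edgeR's test). The TP libraries held too few counts for a fold change, and without TP1 the adjusted p in edgeR's test was 0.077.

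In the lower direction, 2.3% of all genes passed the threshold in WH minus WP and 5.35% in TH minus TP. Of the 4 tested genes around natriuretic peptide, 1 passed it in that direction in both of these comparisons of HDM with PBS. This gene, Npr3, encodes the clearance receptor that removes natriuretic peptides and stood at 157 and 166 CPM in WP, 54.0 and 53.1 in WH, 222 and 201 in TP, and 34.6 and 47.6 in TH. It fell by 1.60 (SE 0.17, adjusted p = 3.6e-05) in WH minus WP and by 2.34 (SE 0.24, adjusted p = 7.4e-05) in TH minus TP in edgeR's test. Npr1, the guanylyl cyclase receptor that carries the signal, fell by 1.61 (SE 0.38, adjusted p = 0.015 in edgeR's test) in TH minus TP and had a value of -0.64 (SE 0.27, adjusted p = 0.201) in WH minus WP. Furin, a protease that processes many precursors, had values of -0.32 (SE 0.22) and -0.76 (SE 0.30) in WH minus WP and TH minus TP, neither past the threshold. For Npr1 and Furin too the HDM libraries lay below the PBS libraries in both comparisons. That order held for 24.7% of all genes in WH minus WP and for 28% in TH minus TP. Corin, the protease that cleaves the Nppa product to the active hormone, stood at 7.03 and 2.04 CPM in WP, 21.6 and 20.2 in WH, 4.19 and 2.85 in TP, and 4.19 and 4.03 in TH. It was 2.21 higher in WH than in WP (SE 0.54, adjusted p = 0.025) and 2.31 lower in TH than in WH (SE 0.48, adjusted p = 0.030) in edgeR's test. Corin was the only 1 of the 57 other cardiac genes tested past the threshold in TH minus WH, beside 2.44% of all genes. The first of these Corin calls was lost without WP2 (adjusted p = 0.146) and the second without WH1 or WH2 (0.351 and 0.247), and that of Npr1 without TP1 or TP2 (0.090 and 0.245), whereas both Npr3 calls held without any 1 library.

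The other cardiac genes were called with HDM at about the rate of all genes. In WH minus WP, 5 of 59 passed the threshold, beside 6.74% of all genes. Among them, besides Npr3 and Corin, Mef2c, a transcription factor of muscle and other tissues, rose by 0.94 (SE 0.21, adjusted p = 0.015), and the potassium channel gene Kcnj3 was lower (adjusted p = 0.012 in edgeR's test). Kcnj3 stood at 6.63 and 2.86 CPM in WP and 0.09 and 0.10 in WH, too few counts in WH for a fold change. In TH minus TP, 7 of 57 passed, beside 13.8% of all genes: Mef2c rose by 1.08 (SE 0.28) and the stress-induced repeat protein gene Ankrd1 by 1.93 (SE 0.54), while Ttn fell by 0.79 (SE 0.18), Tpm1 by 0.92 (SE 0.19) and Nebl by 1.19 (SE 0.23), with Npr1 and Npr3 the others. These calls too depended on single libraries. Without WP2 the adjusted p in edgeR's test was 0.106 for Mef2c, and without WP1 it was 0.164 for Kcnj3 and 0.0535 for Mef2c, which without WH2 was at 0.065. In TH minus TP, leaving out TP1 or TP2 brought Mef2c, Ankrd1, Ttn, Tpm1 and Nebl to adjusted p-values between 0.099 and 0.293, and leaving out TH1 brought Mef2c to 0.054 and Ankrd1 to 0.353. With an offset for transcript length, the difference of Ttn, whose transcript is exceptionally long, was 0.00 (adjusted p = 0.998).

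The 10 genes were averaged as centred log2 CPM over the 8 libraries, and each gene was compared with this profile as a description over 8 libraries from 4 pools. For each of the 10 genes, Pearson's r was taken with the profile of the others, the gene itself left out. It was highest for Myh7 (0.92), Myl7 (0.88) and Myh6 (0.85) and lowest for Ryr2 (0.65), Nppa (0.53) and Sln (0.27). Of 8350 genes with at least 1 CPM on average and a SD of at least 0.5, the 10 most alike outside the group were Prdm8 (0.98), Zfp316 (0.94), Dock4 (0.93), Phf1 (0.93), Cacna1c (0.92), Sox7 (0.91), 1700119H24Rik (0.91), Gm2011 (0.91), Abi3 (0.90) and Ttc30b (0.90). Prdm8 stood at 6.73 and 8.82 CPM in WP, 2.77 and 3.01 in WH, 2.99 and 3.80 in TP, and 1.35 and 2.17 in TH. Cacna1c was the only 1 of these 10 genes on a cardiac list.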

How the data were processed

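The authors extracted RNA from mouse lungs, pooled it within each group, made 2 amplified cDNA libraries per pool and sequenced 50-base single reads. They aligned the reads to mm10 with TopHat, summarised the reads in coding regions by gene with ShortRead and custom R programs, and tested with DESeq. The submitters' processing notes also name bcl2fastq and CASAVA 1.8. The deposited table holds these raw counts per Entrez gene for 8 libraries, as the authors left them, with no normalization. The strand setting and the TopHat version are not given in the sources used here.

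Of 23469 IDs, 23372 were named from RefSeq (GRCm38.p6) and 21146 had a transcript length from GENCODE M21. Rn45s was named by its ID. Total counts ran from 5694928 to 11929374. Levels are CPM scaled with TMM over 8 libraries; log2 levels used a prior count of 2. Each comparison was fitted on its own 4 libraries with edgeR 4.0.16 (R 4.3.3): filterByExpr with a minimum count of 10, the quasi-likelihood test, Benjamini-Hochberg adjustment over all genes and a threshold of 0.05. The difference between the genotype differences used all 8. The script was tested on simulated counts. DESeq2 1.42.0, RLE size factors, no filter, a replicate block, all 8 libraries in one fit, a transcript-length offset (loess span 0.5), library sizes that left out 13 genes of ribosomal RNA or haemoglobin, and leaving out each library were alternatives. The chi-square of the duplicates' counts was 14.3 to 31.8 per gene, so no pair was a single library.

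The members and the lists were chosen with earlier results of these data known. All 10 members are named; from the other cardiac lists, the genes past the threshold (up to 12 per comparison, 1 of which is not reported here) and Mybphl, Bmp10, Nkx2-5, Pln, Corin, Myl2, Myl3 and Irx4 are named; and so are the 10 genes most alike. Acta1 and Cacna1c are shown as the partner of Actc1 and as one of those 10, and Furin, Tbx5, Tbx20, Gata4, Gata6 and the other genes at 0 were named after their values were seen.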

Additional observations from a re-analysis of the deposited data

Results flagged for a closer look

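Tpm1 encodes the alpha tropomyosin of the thin filament and is also expressed in smooth muscle and non-muscle cells. The test of whether the genotype difference was the same under HDM as under PBS called 279 of all 15868 genes. Tpm1 was the only 1 of the 60 other cardiac genes tested that it called. It stood at 198 and 188 CPM in WP, 271 and 284 in TP, 247 and 262 in WH, and 147 and 143 in TH. TP thus lay above WP, and TH below WH, with no overlap. The difference between the genotype differences was -1.34 on the log2 scale (SE 0.23, adjusted p = 0.003 in edgeR's test on all 8 libraries). It stayed past the threshold when any 1 library was left out, with adjusted p-values from 0.0026 to 0.0443 in edgeR's test. The skeletal muscle markers had negative values in all 17 genes tested for the same difference, beside 50% of all genes, and 9 of them were past the threshold. Levels near 0 in WP push the values of such markers down, so nothing is read from that count. The part of skeletal muscle in the Tpm1 result was not tested.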

How the results depend on the processing

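The alternatives changed how many genes were called far more than the direction of the 10 genes. Over all alternatives, including each library left out, 99 of 99 member values kept their direction in TP minus WP, 101 of 110 in TH minus WH, 108 of 110 in WH minus WP and 93 of 99 in TH minus TP. The genes were proposed from TP minus WP, and all alternatives used the same libraries, so the kept direction there is no independent evidence. The median of the members stayed negative throughout, between -1.17 and -0.83, -0.80 and -0.44, -1.09 and -0.77, and -0.75 and -0.32 in these comparisons when libraries were left out. RLE size factors, and library sizes without the ribosomal RNA and haemoglobin genes, changed no count of calls by more than 1.5 times. The causes of the changes below were not tested.

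In TP minus WP, genes called went from 98 to 223 with DESeq2, 306 without the filter, 45 with the replicate block and 56 to 410 when a library was left out. Members called went from 1 to 3, 4, 0 and 0 to 4 in the same order, with 0 without WP2, 2 without TP1 and 4 without TP2, and the other cardiac genes from 0 to 4 with DESeq2, 4 without the filter and 0 to 5.
In TH minus WH, genes called went from 370 to 922 with DESeq2, 1055 without the filter, 625 with the replicate block, 771 in the fit of all 8 libraries, 169 with the length offset and 0 to 1458 when a library was left out (5 without WH1, 0 without WH2). Members called went from 1 to 2 with DESeq2, without the filter and with all 8 libraries, and 0 to 2; other cardiac genes from 1 to 3, 4, 2, 2, 0 and 0 to 5.
In WH minus WP, genes called went from 1020 to 1588 without the filter and 551 to 1682. Members called went from 2 to 4 with DESeq2, 5 without the filter, 1 with the replicate block, 0 with all 8 libraries, 1 with the length offset and 0 to 5, and other cardiac genes from 5 to 8 without the filter and 3 to 7.
In TH minus TP, leaving out a library gave 197 to 2803 genes (2079 with all 4), 0 to 1 members (1) and 1 to 12 other cardiac genes (7). For the difference between the genotype differences, 279 genes became 680 with DESeq2, 675 without the filter and 104 to 684.

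Before these changes, the values that changed sign were all smaller in size than their SE. In TH minus WH the length offset gave -0.17 for Myl4, 0.19 for Ryr2 and -0.054 for Sln. Leaving out a library there gave -0.82 to 0.92 for Myl4, -0.87 to 0.83 for Tnni3, -1.36 to 0.081 for Nppa, -5.70 to 6.09 for Sln and -1.0 to 0.116 for Cacna1c. In WH minus WP it gave -6.49 to 0.75 for Sln. In TH minus TP it gave -1.07 to 0.69 for Myl4, -0.44 to 0.20 for Tnni3 and -1.53 to 1.00 for Nppa, while Myl4 was at -0.15 with the replicate block and -0.62 with the length offset.

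The replicate numbers did not pair the libraries: the deviations of libraries with the same number correlated between -0.023 and 0.023 over genes. With 3 libraries in a fit, the lone library of a group was assumed to vary like the other group. CPM on the total count in place of TMM moved 11 of 40 group means of the members by more than their SD, RLE scaling moved 0, and coding length in place of transcript length moved 24 of the 40 levels per kilobase and took Sln out of last place in every group. Depth limits Sln and Nppa most.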
